A study of Homo sapiens with 12 samples.

Results

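The transcripts described here encode negative regulators and direct outputs of the ERK pathway: the phosphatases DUSP1, DUSP4, DUSP5 and DUSP6, the Sprouty and Spred proteins SPRY2, SPRY4 and SPRED1, the transcription factors ETV4 and ETV5, and PHLDA1. These 10 genes were listed by name for their role in the pathway, with earlier results of these data known, and all 10 were measured among 19775 genes, through 28 probe sets that name exactly 1 gene. The genes are scattered over the genome: DUSP1 and SPRY4 lie on chromosome 5, DUSP6 and PHLDA1 on chromosome 12, ETV5 on chromosome 3, DUSP4 on 8, DUSP5 on 10, SPRY2 on 13, SPRED1 on 15 and ETV4 on 17. Each value below is the log2 of an intensity, and comes from the probe set of the gene with the highest mean over the 12 arrays unless another is named.

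The study crossed 2 human pancreatic cancer cell lines with 2 oxygen conditions, with 3 arrays in each of 4 groups: hypoxic L3.6pl, normoxic L3.6pl, hypoxic FG and normoxic FG. L3.6pl and FG differ in metastatic potential, per the series title, and L3.6pl is known as the more metastatic derivative, obtained by repeated passage through mice. Hypoxic cultures spent their last 24 h at 1% oxygen, and normoxic cultures were left untreated. Both lines grew in the same medium with 10% serum from frozen stock, typically for 9 days. No added gene is named in the labels used here. Each line stands for 1 line only, so that a difference between them is a difference between these 2 lines. The sources used here do not say whether the 3 arrays of a group came from separate cultures, so the spread between them may be technical.

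In this pathway, growth factor receptors load RAS with GTP, and RAF, MEK and ERK kinases are then phosphorylated in turn. Active ERK raises transcription of its own inhibitors. The DUSP phosphatases remove the activating phosphates from ERK, with DUSP5 working in the nucleus, DUSP6 in the cytoplasm, and DUSP1 and DUSP4 in the nucleus on other MAP kinases as well. Sprouty and Spred proteins block the step between receptor and RAF, and ETV4, ETV5 and PHLDA1 transcripts are widely read as outputs of ERK. In pancreatic cancer the pathway is usually driven from RAS.

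The labels were checked against markers. Of 11 hypoxia targets measured, 10 rose in hypoxia in each line. The mean of 5 epithelial markers (EPCAM, CDH1 and 3 keratins) lay between 11.78 and 12.15 on every array, and that of 9 stromal and blood markers between 5.66 and 6.40. Of those 9, the collagen gene COL3A1 averaged 5.69 in hypoxic L3.6pl, 5.60 in normoxic L3.6pl, 10.63 in hypoxic FG and 11.02 in normoxic FG. COL1A1, another collagen gene, averaged 9.49 in hypoxic L3.6pl, 8.75 in normoxic L3.6pl, 10.91 in hypoxic FG and 9.73 in normoxic FG. The leukocyte gene PTPRC was at 4.20 to 4.44 in all groups. FG normoxia replicate 1 stood apart from its group: the mean of 12 proliferation genes was 8.76 there, and 10.88 and 10.95 on the other 2 arrays. Replicate 1 of normoxic L3.6pl and replicate 3 of hypoxic L3.6pl stood apart from their groups too, and results below are also given without all 3 of these arrays where that changes a call. Arrays measure the RNA of a whole culture, so a lower level in every cell and fewer cells with the transcript cannot be told apart.

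The 10 genes did not follow 1 pattern, as the plot of values by array shows. DUSP1 rose in hypoxia in both lines and its mean levels in the normoxic lines differed by 0.00 on the log2 scale. DUSP6, SPRY4, ETV4 and ETV5 were higher in L3.6pl than in FG at both oxygen levels, and no hypoxia change of theirs passed the test. DUSP5 rose in hypoxia in both lines and was higher in L3.6pl at both oxygen levels. PHLDA1 was higher in L3.6pl at both oxygen levels and rose in hypoxia in FG. DUSP4 rose in hypoxia in FG too and was called between the lines in normoxia, while SPRY2 and SPRED1 were called between the lines in hypoxia only, a difference between oxygen levels that did not pass when tested.

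**Figure D1:**
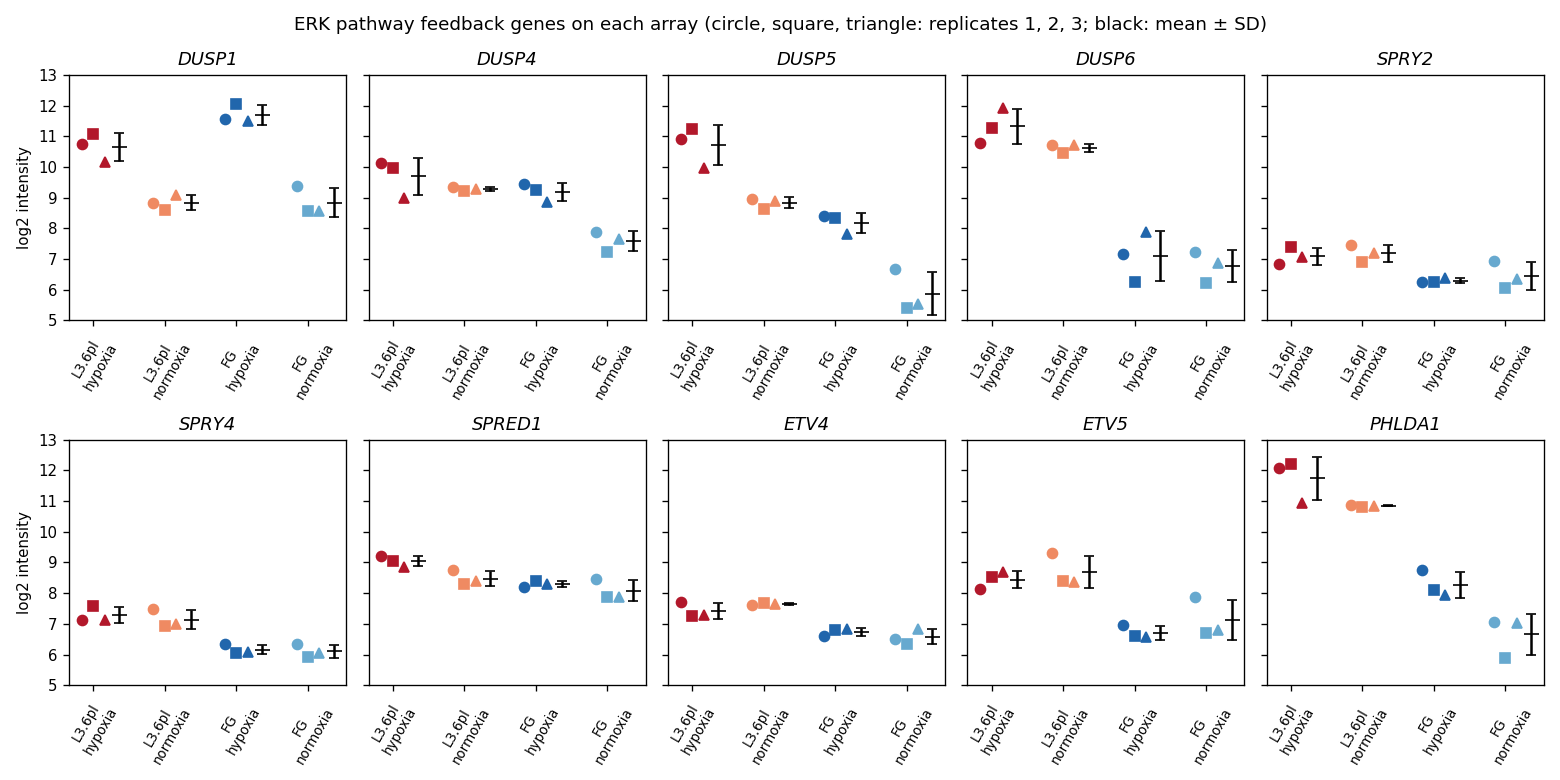
Log2 intensity (vertical axis) of each of the 10 genes on the 12 arrays, by group, with replicates 1, 2 and 3 as circle, square and triangle and the group mean ± SD in black. DUSP1 is high on the 6 hypoxia arrays, at 10.15 or above, while DUSP6 and PHLDA1 separate the L3.6pl arrays, at 10.45 or above, from the FG arrays, at 8.74 or below.

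Promoter sequences of 3 genes are shown. DUSP1 stands for the response to oxygen, DUSP6 for the difference between lines, and PHLDA1 for that difference with a rise in FG. The PHLDA1 rise was called on 1 of its 6 probe sets, and no PHLDA1 rise was called in L3.6pl. DUSP5, called for oxygen in both lines and between lines at both oxygen levels, had no promoter entry. The sequences are the 250 bases before the annotated start from RefSeq, assembly GRCh38.p14. They lie on the minus strand of chromosomes 5, 12 and 12 and are written 5′ to 3′ in the direction of the gene. The positions are chr5:172771196-172771445 for DUSP1, chr12:89352502-89352751 for DUSP6 and chr12:76031777-76032026 for PHLDA1. Capitals mark matches to the motifs described next.

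DUSP1: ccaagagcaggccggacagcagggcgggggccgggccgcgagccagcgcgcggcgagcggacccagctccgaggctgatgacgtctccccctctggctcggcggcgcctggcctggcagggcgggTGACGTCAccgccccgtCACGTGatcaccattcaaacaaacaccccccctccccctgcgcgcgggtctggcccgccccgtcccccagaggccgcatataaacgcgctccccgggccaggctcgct

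DUSP6: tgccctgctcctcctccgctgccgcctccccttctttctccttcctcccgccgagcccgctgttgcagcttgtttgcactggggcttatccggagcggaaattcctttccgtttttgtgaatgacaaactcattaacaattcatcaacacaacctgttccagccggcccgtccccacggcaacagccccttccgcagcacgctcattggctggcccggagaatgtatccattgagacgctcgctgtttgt

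PHLDA1: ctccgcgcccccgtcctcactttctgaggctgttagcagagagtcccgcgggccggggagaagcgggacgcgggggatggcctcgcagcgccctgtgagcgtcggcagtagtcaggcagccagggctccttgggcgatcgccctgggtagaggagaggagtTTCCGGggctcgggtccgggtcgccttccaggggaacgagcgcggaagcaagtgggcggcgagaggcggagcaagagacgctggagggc

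Motifs were searched on both strands in this window: ACGTG, the core of hypoxia response elements, TGACGTCA, the cyclic AMP response element, TGANTCA, the AP-1 site, CCGGAA, a core of ETS factor sites, and the serum response CArG box. The promoter table matched 6 of the 10 genes (DUSP1, DUSP6, SPRY2, SPRY4, SPRED1 and PHLDA1). Of these 6, DUSP1 alone had the cyclic AMP element, 125 bases before its start, a motif found in 1.8% of 27305 promoters. It also held ACGTG on both strands, 108 and 107 bases before its start, where the matches overlap and form an E-box, and 18.7% of promoters hold ACGTG. The ETS core stood in PHLDA1, 89 bases before its start, and in SPRY2, 142 bases before its start, against 14.8% of promoters. None of these 6 held the AP-1 site (6.6% of promoters) or the CArG box (1.1%) in this window. A match is a run of letters, not a bound site, and the motifs were chosen with the array results in view.

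The first comparison asked which of these genes changed in hypoxia. In L3.6pl cells 2 of the 10 rose and none fell, against 6.86% of all genes called, 3.89% higher and 2.97% lower. In the same cells 5 members had all hypoxia arrays above all normoxia arrays, which held for 11.5% of all genes. In FG cells 4 of the 10 rose and none fell, where 10.7% of all genes were called, 4.24% higher and 6.47% lower. There 4 members had their hypoxia arrays above their normoxia arrays, against 10.9% of all genes. The median log2 change over the 10 genes was 0.49 in L3.6pl and 0.28 in FG, and over all genes -0.02 in L3.6pl and -0.03 in FG. Without the 3 arrays that stand apart, 5 members rose in each line, where 7.89% of all genes were called higher in L3.6pl and 7.06% in FG. Of 12 proliferation genes, 1 was called lower in hypoxia in L3.6pl and none in FG. Their mean level was 9.43 to 10.02 on hypoxic and 10.12 to 11.06 on normoxic L3.6pl arrays, which do not overlap. In FG it was 9.66 to 10.30 on hypoxic and 8.76 to 10.95 on normoxic arrays. These overlap only through FG normoxia replicate 1, at 8.76, and the other normoxic FG arrays were at 10.88 and 10.95. The part of the proliferation genes in the members' changes was not tested.

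DUSP1, an immediate early phosphatase of several MAP kinases, had the largest rise of the 10 in FG. In L3.6pl it stood at 10.74, 11.07 and 10.15 in hypoxia, against 8.83, 8.60 and 9.08 in normoxia. In FG it stood at 11.55, 12.06 and 11.48 in hypoxia, against 9.38, 8.55 and 8.56 in normoxia. All hypoxia arrays lay above all normoxia arrays in both lines, and normoxic levels of the lines overlapped. The rise was 3.52-fold in L3.6pl (log2 change 1.81 ± 0.282 SE, adjusted p = 0.00415) and 7.28-fold in FG (2.86 ± 0.282, adjusted p = 0.000255). Both calls held with any 1 array left out, at 1.61 to 2.07 in L3.6pl and 2.68 to 3.14 in FG. Of its other 2 probe sets, 1 was at 0.86 in L3.6pl and 2.18 in FG, where it was called in FG only, and 1 was at -0.08 in L3.6pl and 0.09 in FG, with no call.

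DUSP5, a nuclear phosphatase specific for ERK, rose in both lines from unlike levels. It had 10.92, 11.24 and 9.98 in hypoxic L3.6pl, against 8.97, 8.63 and 8.89 in normoxic L3.6pl. In FG it had 8.40, 8.34 and 7.81 in hypoxia, against 6.68, 5.40 and 5.53 in normoxia. The 4 groups did not overlap, and every hypoxic FG array lay below every normoxic L3.6pl array. The rise was 3.68-fold in L3.6pl (1.88 ± 0.37, adjusted p = 0.0135) and 4.98-fold in FG (2.32 ± 0.37, adjusted p = 0.00331). The L3.6pl call ended without L3.6pl hypoxia replicate 1 (1.78, adjusted p = 0.0502), hypoxia replicate 2 (1.61, adjusted p = 0.0636) or normoxia replicate 2 (1.78, adjusted p = 0.0647), and without the 3 arrays that stand apart it was at 2.31 (adjusted p = 0.000216). DUSP5 has 1 probe set. Its normoxic FG mean, 5.87, lay below 6.25, the median over all genes and arrays. The 4.98-fold rise, and the 7.8-fold difference between the lines in normoxia given below, are both taken against that low group.

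DUSP4, the relative of DUSP1 that also acts in the nucleus, rose in FG on its main probe set. In L3.6pl it had 10.13, 9.95 and 8.99 in hypoxia, against 9.35, 9.22 and 9.29 in normoxia, and the groups overlapped through hypoxia replicate 3 (0.40 ± 0.276, adjusted p = 0.465). Without that array the change was 0.755 (adjusted p = 0.0378), and without the 3 arrays that stand apart 0.785 (adjusted p = 0.0224). In FG it stood at 9.45, 9.25 and 8.86 in hypoxia, against 7.89, 7.24 and 7.66 in normoxia, a 3.01-fold rise (1.59 ± 0.276, adjusted p = 0.00498), and the groups did not overlap. The other 2 probe sets of DUSP4 did not show the rise, with log2 changes of -0.48 and -0.90 in L3.6pl and 0.22 and -0.43 in FG, none of them called. With the mean of all its probe sets, DUSP4 was at -0.325 in L3.6pl, with no call, and at 0.46 in FG (adjusted p = 0.194).

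PHLDA1, a pleckstrin homology-like protein, was called in the same line as DUSP4. In L3.6pl it had 12.06, 12.22 and 10.94 in hypoxia, against 10.86, 10.82 and 10.85 in normoxia, and although the groups did not overlap the change did not pass (0.90 ± 0.375, adjusted p = 0.196). Replicate 3 was the lowest of the hypoxia arrays, and without it the change was 1.3 (adjusted p = 0.0317), as it was without the 3 arrays that stand apart (adjusted p = 0.0267). In FG it stood at 8.74, 8.10 and 7.95 in hypoxia, against 7.05, 5.90 and 7.02 in normoxia, a 3.05-fold rise (1.61 ± 0.375, adjusted p = 0.0207). The FG call ended without FG hypoxia replicate 1 (1.37, adjusted p = 0.08), hypoxia replicate 2 (1.69, adjusted p = 0.0585) or normoxia replicate 2 (1.23, adjusted p = 0.068). It rests on 1 of 6 PHLDA1 probe sets: the others ran from -0.39 to 0.50 in L3.6pl and -0.26 to 0.43 in FG, none was called, and the mean of all of them gave 0.457 in FG (adjusted p = 0.256).

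The other 6 genes had no called hypoxia change in either line. DUSP6, the cytoplasmic ERK phosphatase, was at 10.77, 11.27 and 11.92 in hypoxic L3.6pl, against 10.70, 10.45 and 10.70 in normoxic L3.6pl (0.70, 95% interval -0.20 to 1.60, adjusted p = 0.374). In FG it was at 7.15, 6.25 and 7.89 in hypoxia, against 7.23, 6.21 and 6.87 in normoxia (0.33, interval -0.57 to 1.23, adjusted p = 0.723). The L3.6pl groups did not overlap, whereas those of FG did, and all 3 DUSP6 probe sets gave similar changes, from 0.70 to 0.77 in L3.6pl and 0.24 to 0.36 in FG.

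SPRED1, which brings the RAS inhibitor neurofibromin to the membrane, had 9.21, 9.06 and 8.86 in hypoxic L3.6pl, against 8.75, 8.29 and 8.38 in normoxic L3.6pl. Those groups did not overlap, but the change did not pass (0.57 ± 0.18, adjusted p = 0.0875). It was called without FG normoxia replicate 1, which adds to the shared spread (adjusted p = 0.0273), and without the 3 arrays that stand apart (0.806, adjusted p = 0.00153). In FG it had 8.21, 8.40 and 8.31 in hypoxia, against 8.47, 7.88 and 7.87 in normoxia (0.24 ± 0.18, adjusted p = 0.506), and was at 0.438 without the 3 arrays (adjusted p = 0.0164). The other SPRED1 probe sets were at 0.14 and 0.22 in L3.6pl and -0.49 and 0.20 in FG, none of them called.

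The Sprouty and ETS factor genes overlapped between oxygen levels in both lines. SPRY2 was at -0.09 in L3.6pl (interval -0.59 to 0.40) and -0.15 in FG (interval -0.64 to 0.34). SPRY4 was at 0.14 in L3.6pl (interval -0.26 to 0.54) and 0.05 in FG (interval -0.35 to 0.46). Both encode inhibitors that act between receptor and RAF. ETV4 was at -0.24 in L3.6pl (interval -0.57 to 0.10) and 0.16 in FG (interval -0.17 to 0.50), and ETV5 at -0.25 in L3.6pl (interval -0.98 to 0.48) and -0.42 in FG (interval -1.15 to 0.31). For ETV5, replicate 1 was the highest of the normoxia arrays in each line, at 9.30 in L3.6pl and 7.88 in FG, and all 5 of its probe sets were negative in both lines without a call.

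**Figure D2:**
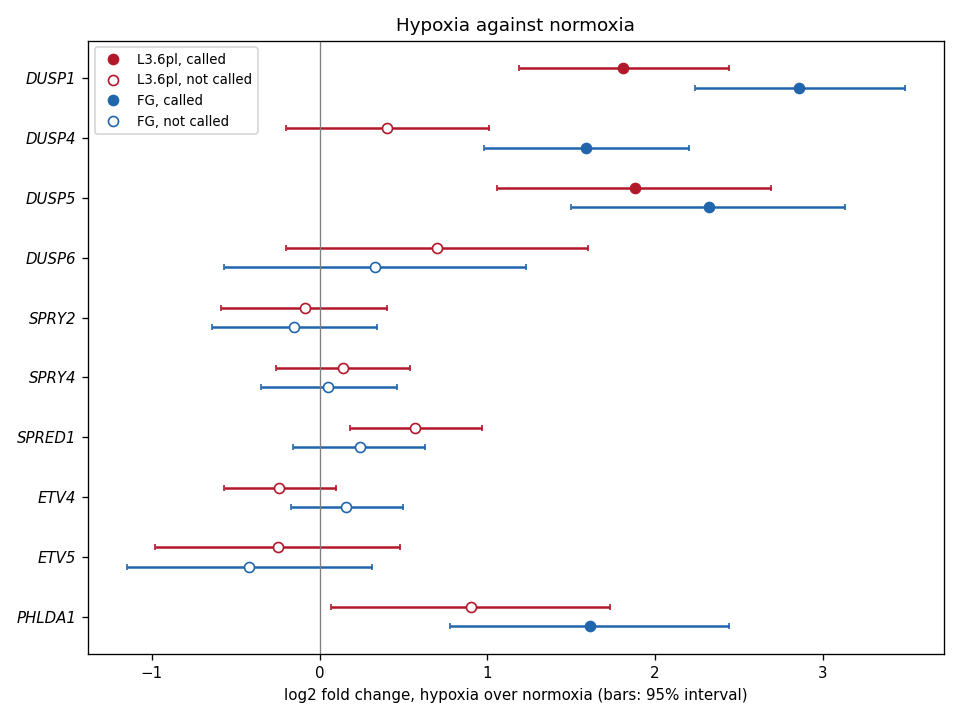
Log2 fold change of hypoxia over normoxia (horizontal axis) for each gene in L3.6pl (red) and FG (blue), with 95% intervals from limma and filled points for called changes. DUSP1 and DUSP5 are called in both lines, DUSP4 and PHLDA1 in FG, and the Sprouty, Spred and ETV genes and DUSP6 have open points.

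The next comparison asked whether the lines differ, first in hypoxia. Of the 10 genes, 8 were higher in hypoxic L3.6pl than in hypoxic FG and 1 was lower, where 16.7% of all genes were called, 10% higher and 6.72% lower. All 9 had groups that did not overlap, 8 above and 1 below, as did 32.1% of all genes, 18.2% above and 13.9% below. In normoxia 7 of the 10 were higher in L3.6pl and none was lower, where 10.7% of all genes were called, 5.16% higher and 5.54% lower. Those 7 also had all L3.6pl arrays above all FG arrays, against 15% of all genes. Without the 3 arrays that stand apart all 10 were called in hypoxia, 9 higher and 1 lower, where 11.7% of all genes were called higher and 10.6% lower. In normoxia 9 were then higher, against 6.63% of all genes. The median log2 difference over the 10 genes was 0.96 in hypoxia and 1.32 in normoxia, and 0.02 over all genes in each. The mean level of the 9 stromal and blood markers was 5.66 to 5.96 on L3.6pl arrays and 6.06 to 6.40 on FG arrays. In hypoxia 1 of the 9 was called higher in L3.6pl, the endothelial and blood cell marker PECAM1 (0.98), and 2 were called lower, COL3A1 (-4.93) and COL1A1 (-1.43). In normoxia COL3A1 was called lower (-5.42) and 6 of the 9 were positive, and the median over the 9 was -0.13 in hypoxia and 0.05 in normoxia. The part of these markers in the line differences was not tested.

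DUSP6 and PHLDA1 differed most between the lines. DUSP6 was 18.6-fold higher in L3.6pl in hypoxia (4.22 ± 0.407, adjusted p = 6.89e-05) and 14.4-fold higher in normoxia (3.85 ± 0.407, adjusted p = 0.000172). The lowest L3.6pl array, at 10.45, lay above the highest FG array, at 7.89. All 3 probe sets were called at both oxygen levels, at 3.58 to 4.22 in hypoxia and 3.05 to 3.85 in normoxia. PHLDA1 was 11.1-fold higher in hypoxia (3.48 ± 0.375, adjusted p = 0.000147) and 18.2-fold higher in normoxia (4.19 ± 0.375, adjusted p = 5.51e-05). In normoxia this was the 13th largest difference in favour of L3.6pl among all genes, and DUSP6 was the 19th. All 6 PHLDA1 probe sets were called, from 1.79 to 4.39 in hypoxia and 1.93 to 4.24 in normoxia.

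DUSP5 was 5.75-fold higher in L3.6pl in hypoxia (2.52 ± 0.37, adjusted p = 0.000926) and 7.8-fold higher in normoxia (2.96 ± 0.37, adjusted p = 0.000521). DUSP4 was 3.22-fold higher in normoxic L3.6pl (1.69 ± 0.276, adjusted p = 0.0028), and all 3 of its probe sets were called there. In hypoxia its difference did not pass (0.50, interval -0.11 to 1.11, adjusted p = 0.276), but it was called at 0.853 without L3.6pl hypoxia replicate 3 (adjusted p = 0.0177) and without the 3 arrays that stand apart (adjusted p = 0.00912). Of its other probe sets, at 0.74 and 0.84, the first was called. Pairing the arrays of the lines by replicate number gave a call for the same 0.503 (adjusted p = 0.0285).

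DUSP1 ran the other way in hypoxia. Its 3 hypoxic L3.6pl arrays all lay below the 3 hypoxic FG arrays, a difference between lines of -1.04 ± 0.282 on the log2 scale (adjusted p = 0.0276). This call ended without FG hypoxia replicate 1 (-1.12, adjusted p = 0.0575), FG hypoxia replicate 2 (-0.862, adjusted p = 0.113), L3.6pl hypoxia replicate 1 (-1.09, adjusted p = 0.0562) or L3.6pl hypoxia replicate 3 (-0.793, adjusted p = 0.0863). In normoxia the difference was 0.00 (interval -0.62 to 0.63), and the second of its 3 probe sets was at 0.11. In hypoxia 2 of the 3 were called lower, at -1.04 and -1.20.

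Among the inhibitors upstream of RAF, SPRY4 had 7.14, 7.58 and 7.12 in hypoxic L3.6pl, against 6.34, 6.06 and 6.08 in hypoxic FG, a 2.18-fold difference (1.12 ± 0.183, adjusted p = 0.0018). In normoxia it had 7.49, 6.94 and 6.98 in L3.6pl, against 6.34, 5.93 and 6.05 in FG, which is 2.05-fold (1.04 ± 0.183, adjusted p = 0.00424). L3.6pl arrays were above FG arrays throughout. SPRY2 was 1.73-fold higher in hypoxia (0.79 ± 0.224, adjusted p = 0.0342), with 6.83, 7.38 and 7.07 in L3.6pl, against 6.26, 6.25 and 6.39 in FG. That call ended when any 1 of 6 arrays was left out (adjusted p up to 0.12): the 3 FG hypoxia arrays (0.767 to 0.836), L3.6pl hypoxia replicate 2 (0.647) or 3 (0.802), or L3.6pl normoxia replicate 3 (0.791). In normoxia SPRY2 was at 0.74 ± 0.224 (adjusted p = 0.0643), and it was called without FG normoxia replicate 1 (0.981, adjusted p = 0.0096), without the 3 arrays that stand apart (0.846, adjusted p = 0.0206) and with arrays paired by replicate number (adjusted p = 0.00397).

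SPRED1 was 1.67-fold higher in hypoxic L3.6pl (0.74 ± 0.18, adjusted p = 0.017), and lost that call without FG hypoxia replicate 1 (0.687, adjusted p = 0.0641), L3.6pl hypoxia replicate 1 (0.654, adjusted p = 0.0598) or L3.6pl hypoxia replicate 2 (0.728, adjusted p = 0.0503). Its other probe sets were at 0.83 and 0.44 in hypoxia, and neither was called. After cyclic loess normalization SPRED1 was at 0.63 (adjusted p = 0.0532) and SPRY2 at 0.692 (adjusted p = 0.0516). In normoxia SPRED1 was at 0.40 ± 0.18 (adjusted p = 0.22), and it was called without FG normoxia replicate 1 (0.601, adjusted p = 0.0334), without the 3 arrays that stand apart (0.462, adjusted p = 0.027) and with paired arrays (adjusted p = 0.0291).

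Both ETS factor genes were higher in L3.6pl. ETV5 stood at 8.12, 8.52 and 8.68 in hypoxic L3.6pl, against 6.96, 6.60 and 6.56 in hypoxic FG, a 3.32-fold difference (1.73 ± 0.331, adjusted p = 0.00461). In normoxia it stood at 9.30, 8.40 and 8.36 in L3.6pl, against 7.88, 6.70 and 6.80 in FG, which is 2.95-fold (1.56 ± 0.331, adjusted p = 0.0121), and it was not called once FG normoxia replicate 2 was left out (1.35, adjusted p = 0.0535). Of its 5 probe sets 4 were called at each oxygen level. ETV4 was 1.6-fold higher in hypoxia (0.68 ± 0.151, adjusted p = 0.011) and 2.11-fold higher in normoxia (1.08 ± 0.151, adjusted p = 0.00108), with both probe sets called. Its normoxic arrays were at 7.63, 7.69 and 7.65 in L3.6pl, against 6.52, 6.36 and 6.84 in FG.

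**Figure D3:**
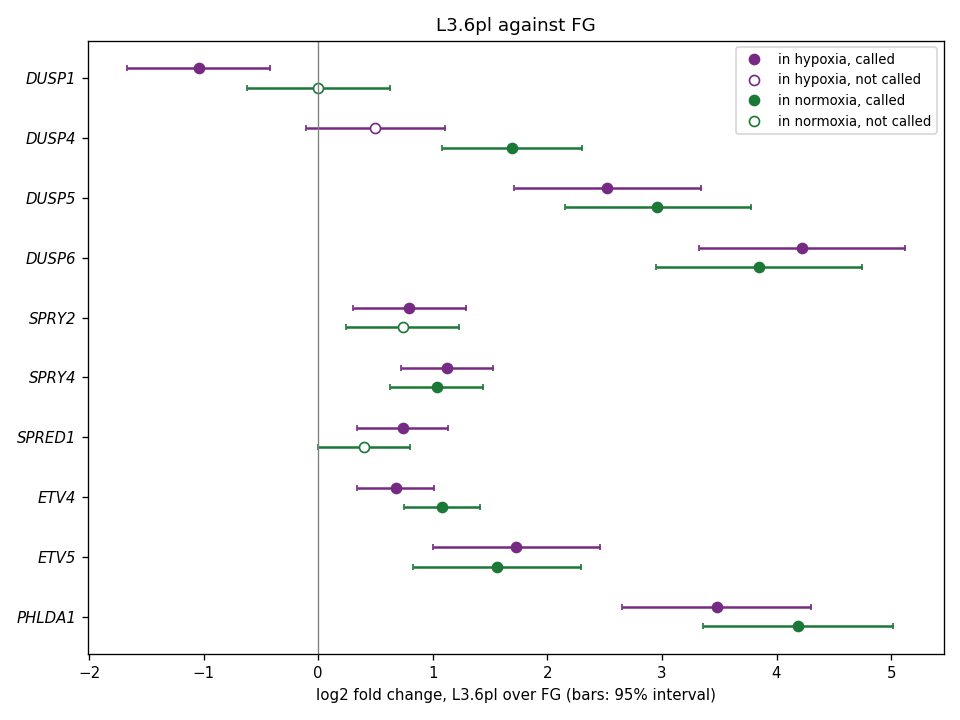
Log2 fold change of L3.6pl over FG (horizontal axis) for each gene in hypoxia (purple) and in normoxia (green), with 95% intervals from limma and filled points for called differences. DUSP6 and PHLDA1 lie between 3.48 and 4.22, and DUSP1 is the only gene with a called negative value, in hypoxia.

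The interaction asked whether hypoxia changed a gene differently in L3.6pl and in FG. None of the 10 was called by limma, where 0.0253% of all genes were (0.0152% higher and 0.0101% lower), and 2 had an unadjusted p below 0.05. These were DUSP4 (-1.18 ± 0.39, adjusted p = 0.465) and DUSP1 (-1.05 ± 0.399, adjusted p = 0.564), both with the smaller hypoxia change in L3.6pl. With arrays of the lines paired by replicate number, DUSP4 was called (adjusted p = 0.0252), where 703 of 19775 genes were called. With array quality weights DUSP4 was called too (-1.2, adjusted p = 0.0361), where 421 genes were called. The main model called 5 genes. All 3 DUSP4 probe sets were negative, from -1.18 to -0.48, and none was called when tested singly. The other 2 showed no rise in L3.6pl: their hypoxia changes were -0.48 and -0.90 there, and 0.22 and -0.43 in FG. The DUSP1 probe sets ran from -1.32 to -0.16, with no call. Other members ran from -0.71 for PHLDA1 to 0.37 for DUSP6.

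Probe sets of 1 gene did not always agree. For genes with several probe sets, the difference between lines was positive on every probe set of DUSP4, DUSP6, SPRED1, ETV4, ETV5 and PHLDA1 at both oxygen levels. In hypoxia against normoxia, the probe sets of DUSP4 and PHLDA1 had both signs in each line, those of DUSP1 in L3.6pl and those of SPRED1 in FG. DUSP6 and ETV5 kept 1 sign over all their probe sets in both lines, and ETV4 within each line. The cause of this disagreement between probe sets was not tested.

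**Figure D4:**
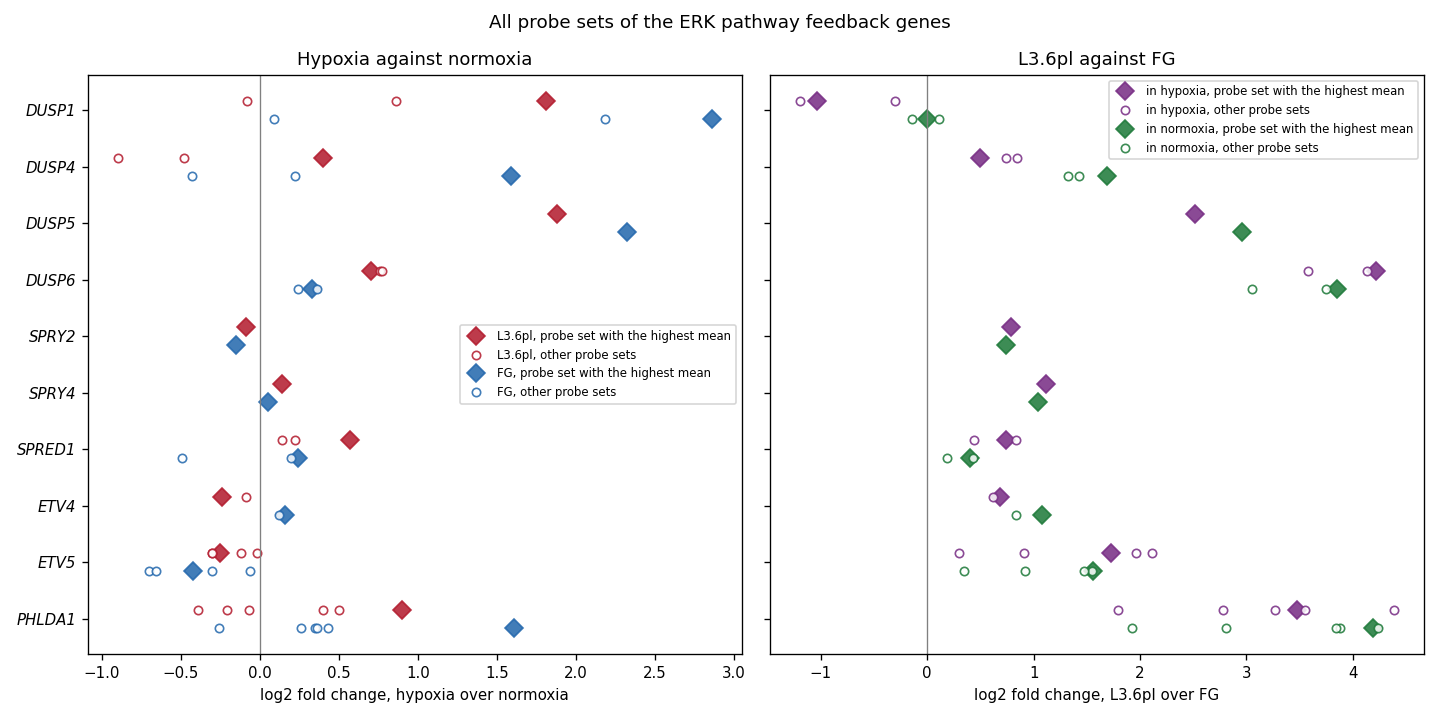
Log2 fold changes of every probe set of the 10 genes, for hypoxia over normoxia in each line (left) and for L3.6pl over FG at each oxygen level (right), with diamonds for the probe set used as the main value and circles for the others. On the left the circles of DUSP4 and PHLDA1 lie around 0, from -0.90 to 0.50, and on the right all of theirs lie above 0.

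Other genes of the pathway were read from lists chosen by function. Over all genes, 3.89% were called higher and 2.97% lower in hypoxia in L3.6pl, and 4.24% higher and 6.47% lower in FG. Between lines, 10% of all genes were called higher and 6.72% lower in L3.6pl in hypoxia, and 5.16% higher and 5.54% lower in normoxia. Counts for each list below are to be read beside these shares. Of 17 relatives of the members and other inhibitors of the pathway, 3 rose in hypoxia in L3.6pl and 3 rose and 2 fell in FG. ERRFI1, an inhibitor of the EGF receptor, rose by 2.83 ± 0.414 in L3.6pl (adjusted p = 0.00304) and 3.62 ± 0.414 in FG (adjusted p = 0.000579). DUSP9, a phosphatase related to DUSP6, rose by 1.44 ± 0.194 in L3.6pl (adjusted p = 0.00193) and 2.03 ± 0.194 in FG (adjusted p = 0.000221), and DUSP10 rose in FG by 1.33 ± 0.201. DUSP16 rose in L3.6pl by 0.77 ± 0.189. Between lines the list was mixed, with 5 higher and 4 lower in L3.6pl in hypoxia and 4 higher and 2 lower in normoxia. ETV1, the third factor of the ETV4 and ETV5 family, was 2.60 ± 0.294 higher in L3.6pl in hypoxia (adjusted p = 0.000191), whereas DUSP9 was lower there, with a difference of -1.76 ± 0.194 (adjusted p = 0.00016). LRIG1, another inhibitor of EGF family receptors, was 3.04 ± 0.373 higher in hypoxia and 2.56 ± 0.373 higher in normoxia.

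Components of the cascade itself were counted beside the same shares. Of 12 measured, 3 rose and 1 fell in hypoxia in L3.6pl, and 2 rose in FG. NF1, which encodes neurofibromin, rose by 1.42 ± 0.287 in L3.6pl (adjusted p = 0.015) and 2.11 ± 0.287 in FG (adjusted p = 0.00146). Its normoxic levels were low, at 4.25, 4.55 and 4.59 in L3.6pl and 4.98, 4.83 and 4.94 in FG. The median over all genes and arrays was 6.25. MAP2K1, the kinase MEK1, rose by 0.61 ± 0.0941 in L3.6pl and 0.65 ± 0.0941 in FG. MAPK3, the kinase ERK1, rose in L3.6pl by 0.36 ± 0.0882 (adjusted p = 0.0341) and was at 0.06 ± 0.0882 in FG. It was 0.64 ± 0.0882 higher in L3.6pl than in FG in hypoxia (adjusted p = 0.000668) and 0.33 ± 0.0882 higher in normoxia (adjusted p = 0.0358). Between lines 4 of the 12 were higher and 2 lower in hypoxia, and 2 were higher in normoxia.

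Upstream of the cascade, 13 ligands and receptors were measured, which feed the cascade from the cell surface. EREG, a ligand of the EGF receptor, was higher in L3.6pl by 2.32 ± 0.279 in hypoxia (adjusted p = 0.000286) and 2.46 ± 0.279 in normoxia (adjusted p = 0.000277). TGFA, another such ligand, was higher by 1.93 ± 0.2 in hypoxia and 1.51 ± 0.2 in normoxia. EGFR, the receptor itself, was higher by 1.65 ± 0.401 in hypoxia (adjusted p = 0.0166) and 1.58 ± 0.401 in normoxia (adjusted p = 0.0293). FGFR1 was at -2.50 ± 0.469 in hypoxia and FGFR2 at -1.79 ± 0.343 in normoxia, both lower in L3.6pl. In all, 5 were higher and 2 lower in hypoxic L3.6pl, and 4 higher and 3 lower in normoxic L3.6pl. In hypoxia against normoxia 3 rose and 1 fell in L3.6pl, and 2 rose and 3 fell in FG.

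Transcripts outside the 10 that are known to follow ERK numbered 13. In hypoxia 5 of them rose in each line and none fell, FOS, MAFF, IER3, FOSL1 and EPHA2 in both cases, the last of them named after its values were seen. FOSL1, an AP-1 subunit, rose by 1.38 ± 0.216 in L3.6pl (adjusted p = 0.00432) and 0.89 ± 0.216 in FG (adjusted p = 0.0245). Between lines 5 were higher and 1 lower in L3.6pl in hypoxia, and 5 higher and 2 lower in normoxia. EGR1, an immediate early transcription factor, was 4.38 ± 0.735 higher in normoxic L3.6pl (adjusted p = 0.00318), and FOSL1 was 1.90 ± 0.216 higher in hypoxia (adjusted p = 0.000202). CCND1, the cyclin D1 gene often read as an ERK output, was lower in normoxic L3.6pl (-0.79 ± 0.22, adjusted p = 0.0436) and at -0.62 ± 0.22 in hypoxia (adjusted p = 0.0813).

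Immediate early genes also respond to handling and stress. Of 11 measured, 5 rose in hypoxia in L3.6pl and 6 in FG, and FOS and EGR1 stand in this list and in the one before. Their mean level was 8.02 to 8.57 on hypoxic and 7.26 to 7.34 on normoxic L3.6pl arrays, and 8.24 to 8.57 on hypoxic and 6.62 to 6.91 on normoxic FG arrays. FOS rose by 2.18 ± 0.451 in L3.6pl (adjusted p = 0.0161) and 5.15 ± 0.451 in FG (adjusted p = 0.000154). Between lines in hypoxia, where DUSP1 was lower in L3.6pl, 3 of the 11 were higher and 4 lower, with a median of -0.09. ATF3 was lower (-2.53 ± 0.143, adjusted p = 2.23e-06) and EGR1 higher (2.99 ± 0.735, adjusted p = 0.0175). The part of these genes in the members' changes was not tested.

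**Figure D5:**
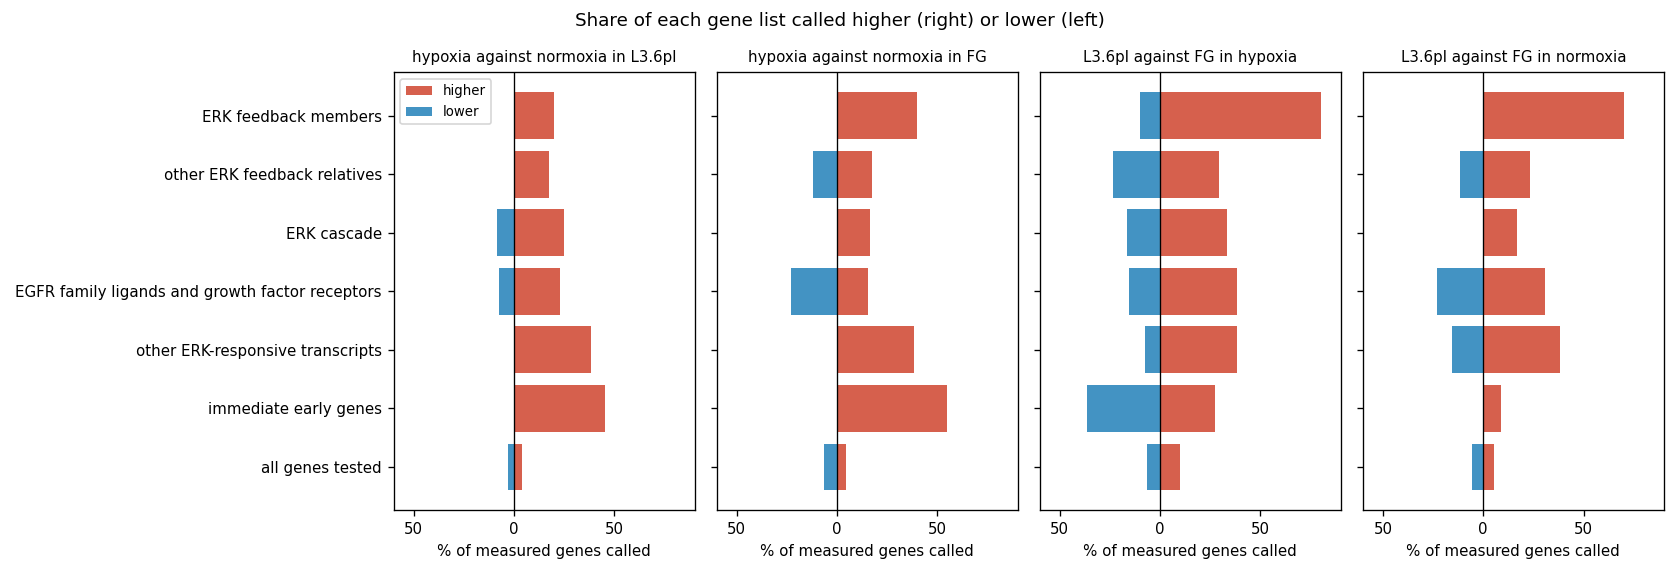
Share of the measured genes of each list that were called higher (red, to the right of 0) or lower (blue, to the left), in percent, in 4 comparisons, with all genes tested in the bottom row. The 10 feedback genes have 8 called higher and 1 lower in L3.6pl than in FG in hypoxia, and 7 higher and none lower in normoxia. Their 17 relatives have 5 higher and 4 lower in hypoxia, and 4 higher and 2 lower in normoxia.

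PHLDA1 had the widest range of group means among the 10 genes, 5.08 on the log2 scale. Over the 12 arrays, the genes whose values around their own mean came closest to it were ALDH1A3, VEGFC, STC1, MUC2 and ZSCAN18. Their root mean square differences from PHLDA1 ran from 0.531 for ALDH1A3 to 0.749 for ZSCAN18. ALDH1A3, a retinaldehyde dehydrogenase, averaged 11.85 in hypoxic L3.6pl, 10.83 in normoxic L3.6pl, 8.43 in hypoxic FG and 6.99 in normoxic FG. PHLDA1 itself averaged 11.74 in hypoxic L3.6pl, 10.84 in normoxic L3.6pl, 8.26 in hypoxic FG and 6.66 in normoxic FG, so both had the same order of groups, with hypoxic L3.6pl highest.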

How the data were processed

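The authors deposited normalized intensity values on a linear scale for 12 arrays, and the submitters' processing notes name RMA. Its version, and how log2 output became linear, are not given in the sources used here. Array medians ran from 39.1 to 41.4, so log2 was taken and nothing was rescaled. The number of arrays limits precision. The platform annotation gives 1 gene for 41091 probe sets, several for 1801 and none for 11721, and 62 are controls. Those with 1 gene were named through RefSeq (GRCh38.p14), and the probe set with the highest mean stands for each gene. All arrays entered 1 limma 3.58.1 model (R 4.3.3) with 4 group means, 8 residual and 2.72 prior degrees of freedom. A call needed an adjusted p (Benjamini-Hochberg, over 19775 genes) below 0.05. Errors after ± are standard errors from limma. With 3 arrays against 3, exact permutation could reach no p under 0.1. The fit was tested on simulated data.

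Same-numbered arrays of the 2 lines deviated together, with r of 0.358 to 0.462 in hypoxia and 0.528 to 0.735 in normoxia across genes (a hint from the data, since the labels do not say what the numbers share), so blocked values are printed where they change a call between lines. Between oxygen levels r ran from -0.217 to 0.413, which does not pair the arrays. The members and lists were chosen with earlier results of these data known. All 10 members are named, and of each other list up to 3 called genes with the smallest adjusted p in a comparison and a few fixed ones.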

Additional observations from a re-analysis of the deposited data

How the results depend on the processing

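Of 22 member values that were called, none changed direction under any of the alternatives run, and 497 of 522 recomputed values stayed called. The other 25 were not called, each at the value given with its gene above or, for ETV5 in normoxia with only the 2 groups fitted, at 1.56 (adjusted p = 0.0598). Of 28 values that were not called, 28 recomputed ones were called and 34 changed sign. The count of members that rose in L3.6pl was 5 with array quality weights or without the 3 arrays that stand apart, 1 at an adjusted p below 0.01, and 1 to 4 with 1 array left out. Of all 19775 genes, 769 rose there in the main model, 2080 with array quality weights and 1560 without the 3 arrays. At an adjusted p below 0.01 it was 329 genes, and with 1 array left out 343 to 962. In FG the count of members was 2 with the mean of all probe sets, and 3 to 4 with 1 array left out. Of all genes, 838 rose there in the main model, 932 with the mean of all probe sets and 481 to 1036 with 1 array left out. Between lines in hypoxia, 5 members were called at an adjusted p below 0.01, all higher, where 1018 of all genes were called higher and 700 lower. The interaction had 1 member with array quality weights, of 421 genes called. It had 1 with the replicate block within each oxygen condition, of 703 genes called.

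The replicate block with 1 term per number called SPRED1 in hypoxic L3.6pl (0.573, adjusted p = 0.0398) and changed no other member call. It gave 2130 genes for hypoxia in L3.6pl and 13 for the interaction, against 1357 and 5. In 20 of 36 cases an array correlated best with its own number. The block within each oxygen condition, added after seeing the data, gave 5935 genes between lines in hypoxia, 4576 in normoxia and 703 for the interaction.

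Counts over all genes were 1357 in L3.6pl and 2117 in FG for hypoxia, 3310 and 2116 between lines in hypoxia and normoxia, and 5 for the interaction. Testing all probe sets singly gave 2454, 4699, 5705, 3487 and 26. Array quality weights gave 5192 in L3.6pl, 5729 in FG, 6623 between lines in normoxia and 421 for the interaction. Without the 3 arrays that stand apart there were 4179 in L3.6pl, 3871 in FG and 19 for the interaction. At an adjusted p below 0.01 there were 475, 860, 1718, 1025 and 2, and with a log2 change of at least 1 there were 537, 850, 1342 and 884. Fitting only the 2 groups gave 797 in L3.6pl. The interaction had 11 after median centring, 10 with an offset of 16, with the filter on dim genes or with trend and robust moderation, and the mean over a gene's probe sets gave 13. With 1 array left out the counts ran from 508 to 2436 in L3.6pl, 1029 to 2899 in FG, 2142 to 3813 between lines in hypoxia, 1254 to 2626 in normoxia and 2 to 23 for the interaction.

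Sign changes were all in values that were not called. DUSP1 between lines in normoxia was -0.0129 after cyclic loess, -0.0077 as the mean over its probe sets, and -0.135 to 0.28 with 1 array left out. With the mean of all probe sets DUSP4 was -0.325 in L3.6pl and SPRED1 -0.0181 in FG. With array quality weights SPRY2 was 0.055 in L3.6pl and 0.151 in FG, and the interaction was -0.0962 for SPRY2 and -0.0822 for ETV5. Without the 3 arrays SPRY2 was 0.0514 in L3.6pl and 0.0952 in FG, and the interaction was -0.0438 for SPRY2, -0.119 for DUSP6 and -0.018 for ETV5. The SPRY2 interaction was -0.017 after cyclic loess and -0.00125 after median centring. With 1 array left out, hypoxia changes in L3.6pl ran from -0.412 to 0.0601 for ETV5, -0.24 to 0.0401 for SPRY2 and -0.00986 to 0.318 for SPRY4. In FG they ran from -0.0657 to 0.753 for DUSP6, -0.349 to 0.0952 for SPRY2 and -0.036 to 0.17 for SPRY4. Interactions ran from -0.0546 to 0.764 for DUSP6, -0.208 to 0.476 for ETV5, -0.19 to 0.255 for SPRY2 and -0.0633 to 0.265 for SPRY4. The cause of these changes was not tested. No detection calls were used here, so a bound for dim probe sets cannot be given.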
